A study of Drosophila melanogaster with 2 samples.

Results

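The cytosolic ribosomal protein genes were taken as all protein-coding genes of the Ensembl annotation on dm6 whose symbol starts with RpL or RpS followed by a number. This gave 88 genes of 13945. By their symbols, 50 were counted for the large (60S) subunit and 38 for the small (40S) subunit, paralogues and genes named -like included. Whether each protein is part of the finished ribosome was not examined. The stalk protein genes RpLP0, RpLP1 and RpLP2 and the 40S protein gene sta carry other symbols and were counted apart. Sites of the transcription factor Dachshund (gene dac) had been mapped by ChIP-seq, in which an antibody pulls down the DNA that a protein is attached to. The antibody recognised GFP, and the flies were a transgenic line with GFP fused to the C-terminus of Dachshund, collected as whole prepupae of both sexes. The labels also state an age of 48 days, which cannot belong to that stage. The series holds 1 group of 2 biological replicates, numbered 1 and 3 in the labels, and no untagged or mock sample was analysed here. Whether DNA at these genes was recovered without the tagged protein was not tested, and the sequences that drive the transgene are not given in the labels.

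Ribosomal proteins are needed in nearly equal amounts in every growing cell, and their genes are among the most actively transcribed ones. In Drosophila many of them start at a pyrimidine-rich TCT initiator in place of the usual initiator of RNA polymerase II genes, and many carry small nucleolar RNAs (snoRNAs), guides for rRNA modification, in their introns. Loss of a single copy of many of these genes gives the slow-growing Minute phenotype. Dachshund is known for its part in the patterning of eye, leg and brain.

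The start sites below set the genes with the strongest assigned peaks beside genes without a pooled peak. RpL7, RpS27, RpL34b, RpL37A, RpS20 and RpL32 had the highest signals among the genes of arms 2L, 3L, 3R, 4 and X. The peak assigned to RpL37A lay 9644 bp from the start site shown, so that sequence is not the place of a strong peak. RpL13A and RpL24-like are the first by symbol of those that had no peak in the list of both replicates pooled. Each line ends 10 bases into the transcript that begins at the start site shown. It opens 50 bases before that start site, or 20 bases before it for RpL7 and RpL37A. All bases shown for RpL37A lie in an exon, since the annotated gene begins farther upstream. Sequences are on the gene's strand, 5′ to 3′, from the RefSeq Release 6 assembly (dm6). Capitals mark a TCT initiator (CTTT with C or T on either side, on the gene's strand, the C of CTTT within 5 bp of the annotated start), the word TATCGAT of the DREF site or the word GGTCACA of the M1BP motif, the last pair on either strand. DREF and M1BP are promoter factors of housekeeping genes in Drosophila.
RpL7, chr2L:10200984-10201013, plus strand: cggccagTGTGACCgtttggccgatggcgc
RpS27, chr3R:25247505-25247564, minus strand: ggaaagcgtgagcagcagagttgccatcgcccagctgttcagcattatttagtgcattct
RpL34b, chr3R:9401217-9401276, minus strand: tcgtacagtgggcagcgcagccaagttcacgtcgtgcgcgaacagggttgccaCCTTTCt
RpL37A, chr2L:5070980-5071009, plus strand: atcgagcggcGGTCACActtttcgctcttt
RpS20, chr3R:20822131-20822190, plus strand: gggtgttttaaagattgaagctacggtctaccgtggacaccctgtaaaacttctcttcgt
RpL32, chr3R:30046152-30046211, minus strand: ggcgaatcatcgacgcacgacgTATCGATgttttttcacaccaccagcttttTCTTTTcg
RpL13A, chr3R:5624424-5624483, plus strand: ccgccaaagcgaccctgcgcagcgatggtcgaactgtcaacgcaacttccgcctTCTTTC
RpL24-like, chr3R:11431573-11431632, minus strand: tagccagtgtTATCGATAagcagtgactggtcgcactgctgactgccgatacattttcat
A TCT word stood at RpL34b and RpL32, which had peaks. It also stood at RpL13A, which had none in the pooled list but a peak of rank 2046 in replicate 3. The start site of RpL32 shown is the one nearest to its peak, not the one used by most of its transcripts. RpL32 is therefore not among the genes counted below as having a TCT initiator. At RpL24-like the word TATCGAT matched on both strands, with the matches overlapping.

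A Dachshund peak was found at 39 of the 88 genes in the authors' list of reproducible peaks. This list holds 4137 peaks that passed the irreproducible discovery rate (IDR) procedure, and a gene was given a peak when no protein-coding start site was nearer to the peak's summit. A peak in each replicate was not required, since 7 of the 39 peaks overlapped none in replicate 1. The 39 genes are 44.3% of the 88, and the same rule gave a peak to 17.6% of all protein-coding genes. With the summit required within 200 bp of a start site, nearest or not, 38 ribosomal protein genes had a peak (43.2%), against 7.80% of all genes. None of the 88 genes had more than 1 IDR peak. The difference in share was not tested, since the design has 1 group and the genes were chosen with earlier results of these data known.

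For each replicate and for the pooled replicates the authors deposited 30000 relaxed peaks. Each of the 39 IDR peaks was also in the pooled list with the same signal and rank, so the IDR and pooled lists are not separate evidence. The 4137 strongest pooled peaks gave the same promoter peak counts and positions as the IDR list. In the pooled list, 70 of the 88 genes had a peak of any strength, against 47.2% of all genes, and 59 had one with a q-value of 0.05 or less, against 28.3%. Replicate 1 gave 61 genes (background 51.2%) and replicate 3 gave 71 (background 49.9%). Within 200 bp of a start site, 66 of the 88 genes had a pooled peak (against 25.6% of all genes) and 44 had a peak in each replicate (against 14.2%). A peak within 200 bp in at least 1 of the 3 relaxed lists was present at 76 genes, against 39.4% of all genes.

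**Figure D1:**
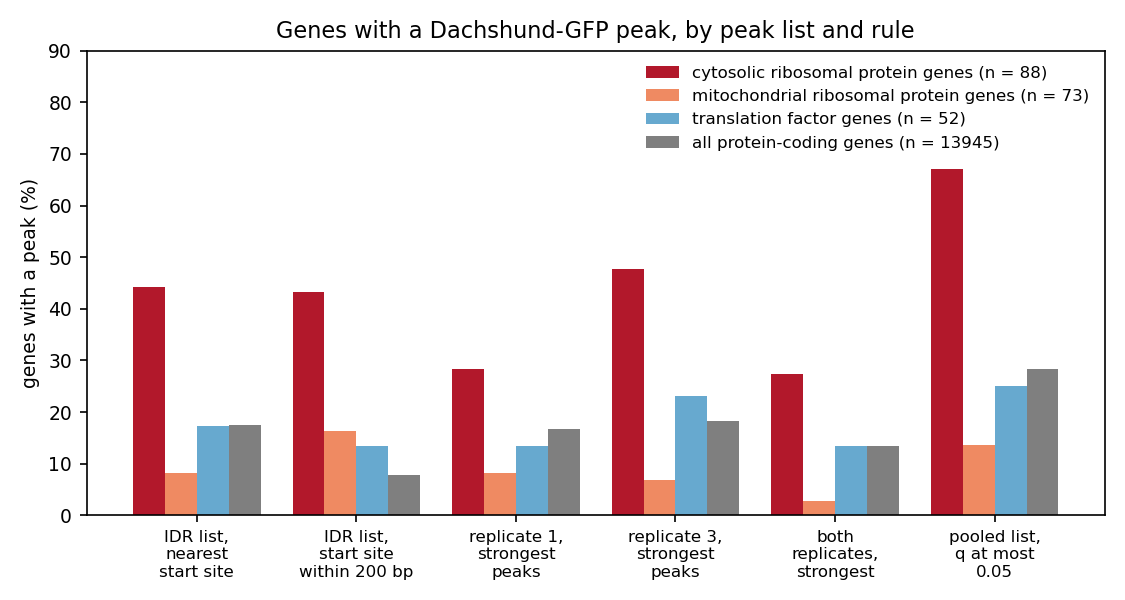
Share of genes with a Dachshund-GFP peak (vertical axis, percent) under 6 combinations of peak list and rule, for cytosolic ribosomal protein genes, mitochondrial ribosomal protein genes, translation factor genes and all protein-coding genes. The cytosolic ribosomal protein genes have the tallest bar in each combination, from 24 of the 88 genes with a strong peak in both replicates to 59 in the pooled list at a q-value of 0.05 or less.

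The strongest sites belonged to both subunits. RpL7 (FBgn0005593), a 60S protein gene, had a peak at chr2L:10200907-10201161 with a signal of 454, the authors' own value without a stated scale. It ranked 342 of 4137 in the IDR list, 482 in replicate 1 and 314 in replicate 3, where rank 1 is the strongest of each list. RpS27 (FBgn0039300), a 40S protein gene, followed with a signal of 438 at chr3R:25247388-25247654 and ranks of 440 and 356 in replicates 1 and 3. The replicates placed both genes among their strongest 500 peaks. RpL34b (FBgn0037686), the copy of the 60S protein gene RpL34 on 3R at 9401226, had a signal of 353 at chr3R:9401180-9401402 and ranks of 614 and 634.

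The other strong sites differed more between the replicates. RpS20 (FBgn0019936), whose protein sits in the head of the 40S subunit, had a signal of 303 at chr3R:20821951-20822064. Its rank was 786 in replicate 3 and 13835 in replicate 1, so replicate 1 held little of it. RpL32 (FBgn0002626), a common reference gene for fly RNA measurements, had a signal of 301 at chr3R:30046144-30046411. It ranked 1448 in replicate 3 and overlapped no peak of replicate 1. RpL14 (signal 285, ranks 1157 and 820 in replicates 1 and 3) and RpL28 (signal 283, ranks 737 and 915), both 60S protein genes, were closer between replicates. RpL24, another 60S protein gene, had a signal of 264 with ranks of 1408 and 886. The last of the 12 strongest were RpL41, which encodes the smallest ribosomal protein (signal 235, ranks 1595 and 1193), RpL27A of the 60S subunit (234, ranks 2251 and 1313) and RpS16 of the 40S subunit (233, ranks 1581 and 1340).

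The peak assigned to RpL37A was not at that gene. Its summit lay at 5080644 on 2L, 9644 bp downstream of the RpL37A start site, in an intron of Pgant5, a glycosyltransferase gene whose start site is farther away. It had a signal of 318 and ranked 584 in replicate 1 and 926 in replicate 3. At the start site of RpL37A itself the pooled list held a weak peak of rank 18006, and replicate 3 one of rank 13294. Replicate 1 held none there. The other 38 peaks all lay within 200 bp of the gene to which they were assigned.

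Across the 39 peaks the signal ran from 110.2 to 454 with a median of 191, against 172 over all 4137 IDR peaks, distal ones included. Within 500 bp of a start site, the median signal was 188 for the 38 peaks of these genes and 186 for the 1417 of other genes. For the strongest IDR peak of each gene, the median was 191 for these genes and 205 over all protein-coding genes with one. The median rank of the 39 peaks was 1763. Of the 39, 8 were among the 1000 strongest of the 4137 IDR peaks and 2 among the 500 strongest. Both shares are below those of the whole list, and the 8 include the distant peak assigned to RpL37A. The 60S genes had a peak in 24 of 50 cases (48.0%) and the 40S genes in 15 of 38 (39.5%), with median signals of 194 and 191. By chromosome arm the genes with a peak were 8 of 18 on 2L, 8 of 19 on 2R, 8 of 13 on 3L, 7 of 23 on 3R and 7 of 14 on X. The share was lowest on 3R (30.4%) and highest on 3L (61.5%) among these arms. Over all genes of each arm it was 16.8% on 2L, 16.1% on 2R, 17.7% on 3L, 17.1% on 3R and 21.9% on X. The sole ribosomal protein gene of chromosome 4, RpS3A of the 40S subunit, had a peak of signal 204, where 6 of the 80 genes of that chromosome had one.

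Genes for proteins of known place in the ribosome show the range. Around the catalytic centre and the exit tunnel of the large subunit, RpL8 (signal 172), RpL4 (156), RpL17 (163) and RpL23A (209) had IDR peaks. They are a selection named after their values were seen, and give no share for this part of the ribosome. Other genes for proteins of this same part of the 60S subunit, among them RpL10, RpL26, RpL35 and RpL39, had no IDR peak. RpL3, whose protein reaches to the catalytic centre, had a pooled peak of rank 5853 outside the IDR list. The partners RpL5 and RpL11, which join the ribosome with the 5S rRNA, were apart. RpL11 had a peak of signal 163, and RpL5 had no peak in the pooled list or replicate 3 and 1 of rank 25070 in replicate 1. In the small subunit, RpS6, the target of S6 kinase, had a peak outside the IDR list (rank 6354 in the pooled list, 8558 in replicate 1 and 6631 in replicate 3). RpS12, needed for cells with a Minute mutation to be outcompeted, was near the lower end of the IDR list with a signal of 113.

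Just inside the limit of the IDR list stood RpS18, a 40S protein gene, with a signal of 110.2. It ranked 3055 in replicate 3 and had no overlapping peak in replicate 1. Among the genes just outside it in the pooled list were RpL12 with a signal of 103, RpL10 with 99.9, RpL37-1 with 93.2 and RpL3 with 85.6. Each of these had its summit within 63 bp of a start site.

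The summits were at the start sites. Of the 38 peaks within 500 bp of the nearest start site, 27 had their summit within 50 bp of it (71.1%). Among the 1417 IDR peaks at other promoters this was so for 188 (13.3%). Of all 39 peaks, 20 had a width of 410 bp with the summit at the middle, which limits how finely positions can be read. The median width was 339 bp for the 38 peaks and 410 bp at other promoters. The median position was −25 bp for the ribosomal protein genes, with a range of −153 to 34 bp, and −129 bp for the other promoters. Upstream of the nearest start site lay 32 summits, 1 was on the start site itself (RpS18), and 5 of the other summits near a start site were downstream, up to the 34 bp of RpL30. The side depends on the start site taken. From the start site used by most transcripts, the summits of RpS4 and RpS16 lay downstream and those of RpL30 and RpS21 upstream. The summits of the strongest genes were 27 bp downstream of the start of RpL7, 14 bp upstream for RpS27, 78 bp upstream for RpL34b, 134 bp upstream for RpS20 and 151 bp upstream for RpL32.

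The position was alike in each replicate. Among the 4137 strongest peaks of replicate 1, the 24 promoter peaks of ribosomal protein genes had a median position of −30.5 bp, against −144 bp at other promoters. In replicate 3 the 41 such peaks had a median of −25 bp, against −105 bp. Promoters with and without a divergent neighbour were also taken apart. Where another gene started on the opposite strand within 500 bp upstream of the start site used by most transcripts, the median was −23 bp (n = 18 peaks) against −84 bp at other promoters of that kind. Without such a neighbour it was −33.5 bp (n = 20) against −163 bp. Against the start site used by most transcripts of each gene, in place of the nearest one, the median of the ribosomal protein genes was −36.5 bp. The other promoters were not measured from that start site.

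**Figure D2:**
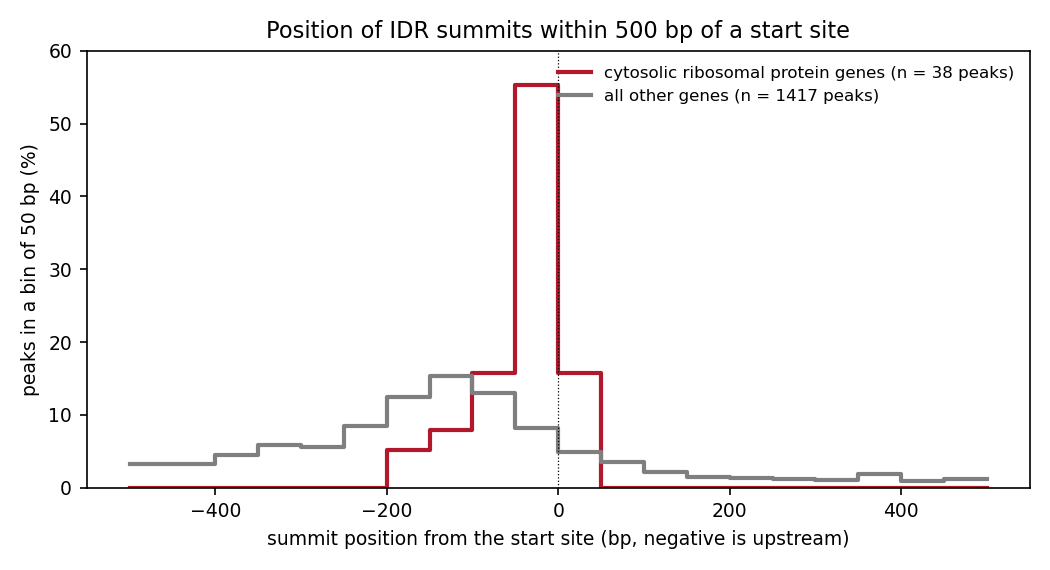
Position of the IDR summits that lie within 500 bp of the nearest start site, in bins of 50 bp (horizontal axis, negative is upstream), as a percentage of the peaks of each group (vertical axis). Of the 38 ribosomal protein gene peaks, 21 fall in the bin just upstream of the start site (55.3%), whereas the 1417 peaks at other promoters are spread more widely, with a median of −129 bp.

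Replicate 3 held strong peaks at more of these genes than replicate 1. At least 1 of the 4137 strongest peaks of replicate 1 belonged to 25 of the 88 genes (28.4%, against 16.8% of all genes). In replicate 3, 42 genes did (47.7%, against 18.3%). With a strong peak in both replicates there were 24 (27.3%, against 13.4% of all genes), and with both summits within 200 bp of a start site also 24 (27.3%, against 4.78%). A strong peak in replicate 3 alone was found at 18 genes and in replicate 1 alone at 1, RpL13. The call at RpL13 comes from the assignment: a replicate 3 peak of rank 2148 overlapped its IDR peak, with the summit 74 bp upstream of RpL13, but was assigned to the divergent gene Dref. Over all protein-coding genes these numbers were 680 and 475.

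The ranks show the same imbalance. Of the 32 member peaks of the IDR list that overlapped a peak in each replicate, 26 ranked higher in replicate 3 (81.2%). Among the 3964 other IDR peaks this was so for 49.5%, and among the 1311 other promoter peaks for 55.5%. The median rank of the 32 peaks was 2509.5 in replicate 1 and 1408.5 in replicate 3. Across these 32 peaks Spearman's rho of the ranks was 0.423, and across the other promoter peaks it was 0.747, given as descriptions, since peaks of a library share its depth. Replicate 3 had 13828 peaks at a q-value of 0.05 or less and replicate 1 had 5282. The read depth is unknown, and the part of the difference in peak numbers in this imbalance was not tested.

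The 7 peaks that overlapped nothing in replicate 1 belonged to RpL4, RpL18, RpL23A, RpL31, RpL32, RpL35A and RpS18. Their ranks in replicate 3 ran from 1032 at RpL23A to 4407 at RpL18. In replicate 3 none of the 39 lacked an overlapping peak. Thus 32 of the 39 overlapped a peak in each replicate. That share was smaller than among the other peaks in the list of 4137, of which 3964 did so. It was also smaller than among the 1417 IDR peaks at other promoters, of which 1311 did. In replicate 1 the overlapping peaks at RpS20, RpS12, RpL30 and RpL11 had q-values above 0.05. The rest of the 32 had q-values of 0.05 or less there. For the other IDR peaks this was not counted.

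**Figure D3:**
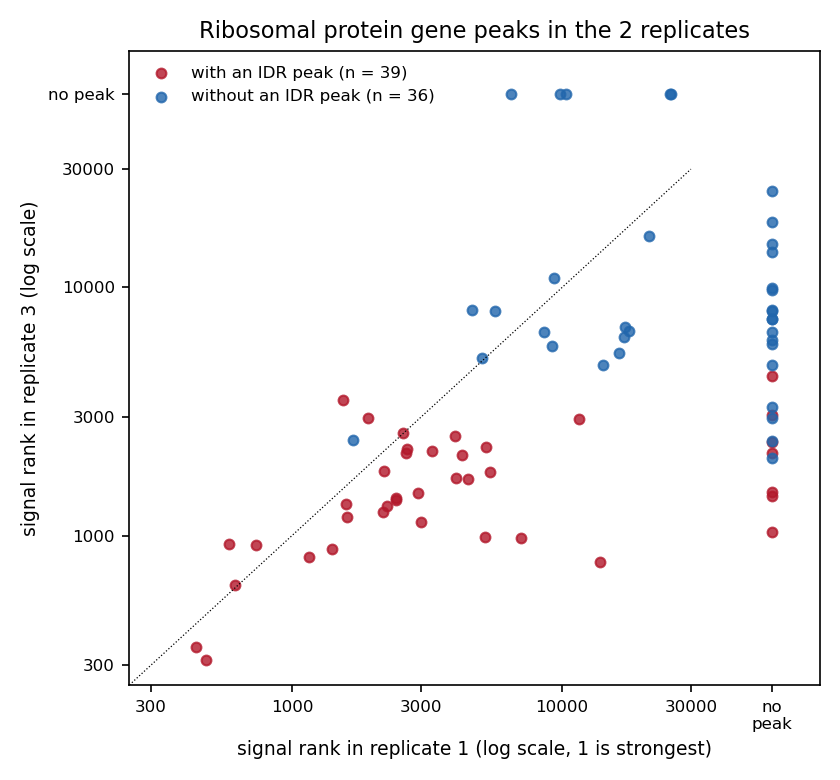
Signal rank of each ribosomal protein gene's peak in replicate 1 (horizontal axis) and replicate 3 (vertical axis), on log scales with 1 as the strongest. Points are the 39 genes with an IDR peak, at the peak that overlaps it, and 36 genes without one, at the strongest peak within 200 bp of a start site. Points below the dotted line rank higher in replicate 3, as 26 of the 32 IDR peaks found in both replicates do, and the margins hold genes with no peak in that replicate.

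A gene could be strong in both replicates and still be missing from the IDR list. RpS10b (FBgn0285947), a 40S protein gene on X, ranked 1684 in replicate 1, with the summit at −23 bp, and 2418 in replicate 3, with the summit at 4 bp. The pooled list of 30000 peaks held no peak near it. RpL13A (rank 2046 in replicate 3) and RpL26 (rank 2397 in replicate 3), both of the 60S subunit, were also absent from the pooled list. Among all strongest peaks of replicate 1 that overlapped a strong peak of replicate 3, 9 of 2936 were absent from the pooled list (0.307%). How the replicates were pooled is not stated in the labels or headers.

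In all, 12 of the 88 genes had no peak within 200 bp of a start site in any relaxed list, and 9 of these are paralogues. The list of paralogue sets comprised 25 genes in 12 sets, and 9 of the 25 had an IDR peak (36.0%), against 30 of the other 63 genes (47.6%). The sets were drawn up by symbol, so a gene named -like was counted as a copy whatever its role. In 9 of the 12 sets exactly 1 copy had an IDR peak, and in 0 sets more than 1. The copies with a peak were RpL7 (signal 454), RpL34b (353), RpL24 (264), RpS28b (204), RpS5a (191), RpL22 (185), RpS14b (160.1), RpS19a (160.0) and RpL10Ab (135). Their partners RpL10Aa, RpL22-like, RpL24-like, RpS19b, RpS28a and RpS28-like had no peak within 200 bp in any list. RpL22-like and RpS19b are known as copies used mainly in the germline.

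The remaining partners had weak peaks. RpS5b, a copy known from the ovary, ranked 25480 in the pooled list and 24560 in replicate 3. RpL7-like ranked 22485 in the pooled list and 10317 in replicate 1. RpS14a, whose copy RpS14b encodes the same protein, ranked 6319 in the pooled list, 5625 in replicate 1 and 8002 in replicate 3, closer to its partner than the copies of other sets. At RpL34a the pooled list had a peak of rank 5831 within 200 bp, but the start site of its divergent neighbour Trmt61 was nearer. In the 3 sets without an IDR peak, RpS10b was strong in each replicate as given above, RpL37-1 ranked 2982 in replicate 3 and 5221 in the pooled list, and RpS15Aa ranked 7539 in the pooled list. Their partners RpS10a, RpL37-2 and RpS15Ab had no peak within 200 bp. None of the words of 50 bases within 200 bp of the main start sites of the 88 genes occurred a second time on the 6 chromosome arms. The read length is not known here, so how shorter reads were placed between copies was not tested.

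Among the genes outside the paralogue sets, RpL38 and RpS30 had no peak within 200 bp in any list. RpS30 encodes a 40S protein made as a fusion with a ubiquitin-like protein. Of the genes for fusions with ubiquitin, RpS27A had an IDR peak of signal 153 and ranks of 4251 and 2117 in replicates 1 and 3, and RpL40 had a weaker peak of rank 8308 in the pooled list. The pooled list gave no peak to 18 of the 88 genes. Among them were RpL5, RpL9, RpL13A, RpL24-like, RpL26, RpL29, RpL34a and RpL38 of the 60S subunit and RpS2, RpS10a, RpS10b, RpS15Ab, RpS19b, RpS24, RpS28a, RpS28-like and RpS30 of the 40S subunit.

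The promoters of the 88 genes were set beside all promoters, and the genes with a peak beside those without. In the window from 250 bp before to 50 bp after the start site used by most transcripts, a TCT initiator within 5 bp stood at 39 of the 88 genes (44.3%), against 1.47% of all protein-coding genes. In 36 of the 39 the C of CTTT was 2 to 5 bp downstream of the annotated start. Of the genes with an IDR peak 16 of 39 had it (41.0%), and of those without 23 of 49 (46.9%). The usual initiator, TCAGT or TCATT with its A within 5 bp of the start, was at 3 of the 88 genes (3.41%) and at 13.8% of all genes. From 1 to 15 bp after the start site, 76.2% of the bases of genes with a peak and 78.0% of those of genes without one were pyrimidines, against 52.2% over all genes.

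**Figure D4:**
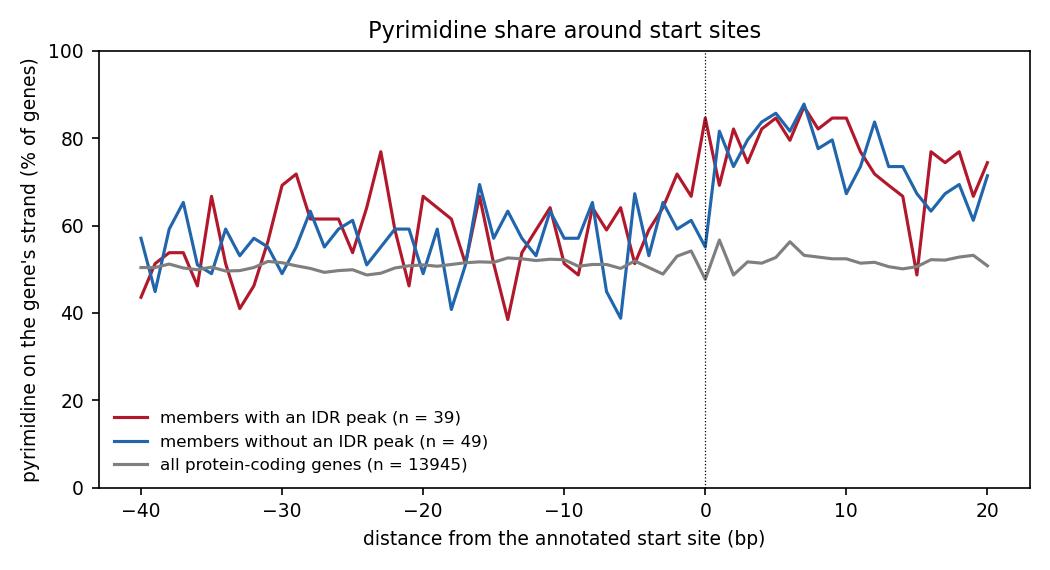
Share of genes with a pyrimidine on the gene's strand (vertical axis, percent) at each position from 40 bp before to 20 bp after the annotated start site (horizontal axis). Ribosomal protein genes with and without an IDR peak both lie above all protein-coding genes after the start, with means from 1 to 15 bp of 76.2%, 78.0% and 52.2%.

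Genes outside the list were also split by the TCT initiator. Of 166 genes outside the list that had it, 14 had an IDR summit within 200 bp (8.43%), against 7.57% of the 13691 genes without it. Within the list the shares were 41.0% of 39 genes with the initiator and 44.9% of 49 without it. The word TATCGAT, counted on either strand, was at 35 of the 88 promoters (39.8%, against 18.0% of all genes), at 12 of the 39 with a peak (30.8%) and at 23 of the 49 without one (46.9%). GGTCACA was at 17.0% (9.76% of all genes), with 17.9% and 16.3% in the genes with and without a peak. CACGTG, the E-box read by Myc, a driver of ribosome production, was at 9 of the 88 promoters (10.2%, against 4.20%). CAGCTG, the E-box of proneural factors, was at 8 (9.09%, against 17.8%), and TATAAA was at 41 (46.6%, against 45.5%), with 56.4% and 38.8% in the genes with and without a peak. GAGAGAG, a word of GAGA factor sites, was at 0 of the 88 promoters, against 6.16% of all promoters of that length and 6.86% of the other genes with an IDR summit within 200 bp. Matches are descriptions of the letters in this window and were not tested.

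A snoRNA gene lay inside 28 of the 88 genes on the same strand (31.8%), against 0.602% of all protein-coding genes. Of the genes with an IDR peak 16 of 39 were such hosts (41.0%), among them RpS5a with 14 snoRNAs and RpL28 and RpS16 with 5 each, and of those without a peak 12 of 49 (24.5%), among them RpS7 with 7. A divergent start site within 500 bp upstream was found at 18 of the 39 genes with a peak (46.2%) and at 14 of the 49 without one (28.6%), against 25.8% of all genes. Among the other genes with an IDR summit within 200 bp it was 51.2%. The GC content of the promoter window had a median of 38.3% in genes with a peak, 35.7% in genes without one and 38.0% over all genes.

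**Figure D5:**
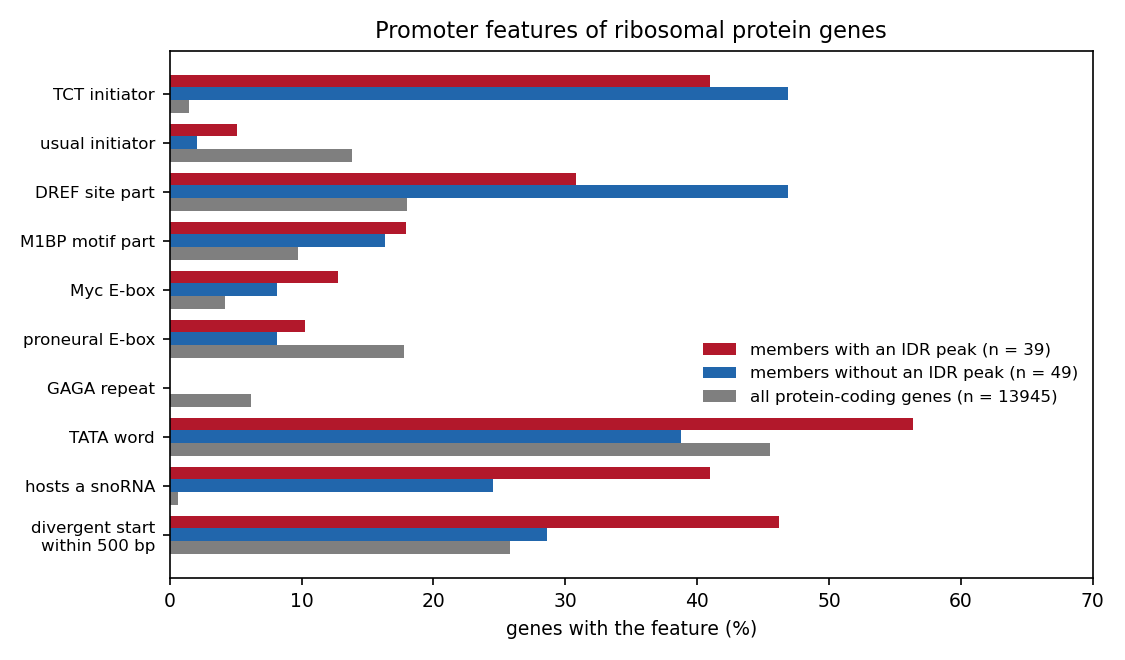
Share of genes (horizontal axis, percent) with each promoter or gene feature, for ribosomal protein genes with an IDR peak, those without one and all protein-coding genes. The TCT initiator and snoRNA hosting are more frequent in both groups of ribosomal protein genes than in all genes, and the genes with a peak exceed those without one in TATAAA (56.4% and 38.8%) and in divergent start sites (46.2% and 28.6%).

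Other genes of translation were placed beside the list. The stalk genes and sta had an IDR peak in 4 of 4 cases. RpLP0, the base of the ribosomal stalk, had a signal of 270.0 with its summit 47 bp from the start site, RpLP1 had 171 at 19 bp and sta had 176 at 59 bp. The peak assigned to RpLP2 had a signal of 118 and lay 2100 bp upstream, so 3 of the 4 were at a start site. Mitochondrial ribosomal protein genes, which serve the separate ribosome of that organelle, had an IDR peak by the nearest start site in 6 of 73 cases (8.22%) and a summit within 200 bp in 12 (16.4%). Their 6 promoter summits had a median position of −71.5 bp, and 0 were within 50 bp. Translation factor genes (eIF and eEF symbols) had a peak in 9 of 52 cases (17.3%) and within 200 bp in 7 (13.5%). Of 19 ribosome biogenesis genes 4 had a peak (21.1%), namely Nopp140, Ns1, eIF6 and l(3)72Dn. The differences between these lists and the cytosolic ribosomal protein genes were not tested.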

How the data were processed

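ChIP-seq peaks of GFP-tagged Dachshund came from 2 biological replicates, grouped by the labels. The authors deposited 4 lists on dm6: relaxed lists for replicate 1, replicate 3 and both pooled, and an IDR list. Per the deposited readme they derive from the alignments and a control. Which aligner and peak caller were run, and with which IDR threshold, is not given in the sources used here. Signal values were deposited by the authors without a stated scale, so lists were compared by rank. The authors' q-value column holds −log10 q, capped in each list. All peaks ended inside the Release 6 arms. The dm3 lists were not used. Read depth is unknown.

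Genes came from Ensembl release 115 (BDGP 6.54), sequence from RefSeq Release 6. A summit went to the nearest protein-coding start site, and genes tied for it each counted in shares of genes. Motifs were sought from 250 bp before to 50 bp after the start site used by most transcripts. No test was run: there is 1 group, and shares are set beside those of all genes. Members, gene lists, motifs and the rule for named genes were chosen with earlier results of these data known. The rule names the 12 strongest genes, those with a distant summit, those missing from a replicate, those just outside the IDR list, paralogues and ubiquitin fusions; genes named for a known place or role in the ribosome, snoRNA hosts, RpS3A, RpL13, RpL30, RpL13A and RpL26 were added after their values were seen. Assignment and motif searches were checked on simulated summits and sequences. Python 3.11.15, numpy 2.4.6, pandas 2.3.3, scipy 1.17.1 and matplotlib 3.10.9 were used. Some genes that the rule names are not reported here.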

Additional observations from a re-analysis of the deposited data

How the results depend on the processing

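The count of 39 genes with a peak ranged from 25 (replicate 1 alone) to 42 (replicate 3 alone) when either replicate was left out. It fell to 23 with IDR peaks above the median signal and to 24 with strong peaks in both replicates, and it was 59 in the pooled list at a q-value of 0.05 or less. The last 2 alternatives were chosen after seeing the data. The list above the median signal holds fewer peaks by construction, and the cause of the other moves was not tested. The backgrounds over all genes were 10.8% for IDR peaks above the median and as given in the report for the other peak lists. Counts by the other rules were 38 with a start site within 200 bp, 34 with a start site inside the peak (6.48% of all genes) and 38 with non-coding RNA start sites added (16.1%). The median summit position was −30.5 to −25 bp over the replicates left out, −23 bp above the median signal and −36.5 bp from the start site of most transcripts. The median rank was 1594.5 to 2180 over the replicates left out. The TCT initiator was found at 56 genes within 10 bp (2.86% of all genes) and at 53 over every start site (2.13%). Read depth is unknown, which limits what a missing weak peak can show. No paired analysis was possible because there is 1 group.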

Other observations

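Several of the peaks counted for ribosomal protein genes lay in promoters shared with another gene. RpL7 starts 30 bp from Ripalpha, RpL13 101 bp from Dref, which encodes the factor DREF, RpL14 127 bp from Nelf-E, a subunit of the negative elongation factor, and RpS27 144 bp from Nup37, a nuclear pore protein gene. RpL28 starts 383 bp from the translation initiation factor gene eIF1. The nearest start site decided to which gene a summit was assigned.

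Promoter peaks that were strong in 1 replicate and absent from the pooled list numbered 130 of 1629 in replicate 3 (7.98%) and 38 of 1300 in replicate 1 (2.92%). Among the strongest peaks of the ribosomal protein genes, 3 of 43 were absent in replicate 3 (6.98%) and 1 of 27 in replicate 1 (3.70%).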
